A study of Mus musculus with 6 samples.

Results

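Haematopoietic progenitor transcription factors and receptors are described here as 10 genes chosen by name: Myb, Erg, Kit, Cd34, Flt3, Meis1, Gata2, Lmo2, Runx1 and Spi1. All 10 were found by gene ID among the 56884 genes of the count table, and 9 passed the filter on low counts, under which 15462 genes were tested. Cd34 did not pass it. The samples were 3 libraries of B cells selected from spleens of wild-type (WT) mice, with columns marked BL6, and 3 libraries of whole spleen of passage-1 (P1) mice. Per the description of the series, passaged mice carry transferred cells of the Eµ-SOX11CCND1 model of mantle cell lymphoma, in which the Eµ immunoglobulin enhancer drives the transgenes in the B lineage. The labels give no cell selection for the P1 spleens, so each P1 library can hold transferred lymphoma cells and the host's own spleen cells, and the labels give no strain, age or sex for these mice. No WT column names its mouse, so the WT libraries carry the letters A, B and C in column order, and the P1 replicates keep their label numbers 3, 4 and 5. The labels do not say whether the 3 P1 mice received cells of 1 lymphoma.

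Blood stem and progenitor cells are kept by a small set of transcription factors that bind together at shared enhancers, among them Runx1, Gata2, Erg and Lmo2 with the partners Tal1, Lyl1 and Fli1. Progenitors respond to stem cell factor through the receptor Kit and to Flt3 ligand through Flt3, and Cd34 is a surface sialomucin used to sort them. The mouse spleen makes red cells and granulocytes throughout life and more of them under stress, and several of these genes are also used by mature cells: Spi1, Lmo2 and Runx1 by B cells, Spi1 by macrophages, Flt3 by dendritic cells, Gata2 and Kit by mast cells, and Erg by endothelium.

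Library totals ran from 12196413 to 14266132 counts in WT and from 7510327 to 10363396 in P1. The smallest, P1 replicate 4, stood apart with a normalization factor of 0.578 by TMM (trimmed mean of M-values) against 1.09 to 1.19 in the other libraries, 17.4% of counts from mitochondrial genes and 11.7% from globin genes. Its depth after scaling made 1 count worth 0.230 normalised CPM (counts scaled to the adjusted library size), against 0.0604 to 0.116 in the others, so low genes are least precise there. Sox11 had 0, 1 and 0 counts in WT and 956, 4066 and 5584 in P1. Of 25 pan-B cell genes tested, 0 were higher and 21 lower in P1 (edgeR quasi-likelihood test, adjusted p under 0.05), with a summed level of 30000 to 33800 normalised CPM in WT and 4340 to 14400 in P1. In all, 2618 genes were higher and 1702 lower, which is 27.9% of the genes tested.

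Of the 9 members tested, 3 rose in P1 spleen, Myb, Erg and Kit, and 0 fell, against a background of 16.9% of all tested genes higher and 11% lower. The same 3 were the members whose P1 libraries all lay above the WT libraries, a separation found in 22.9% of tested genes (24.9% for P1 below WT, 47.8% in all). Over the 9 tested members the median log2 fold change was 1.71, beside 0.02 over all tested genes. The rise was 9.17-fold for Myb, 17.1-fold for Erg and 3.28-fold for Kit. Erg, with at most 9 counts in any WT library, passed the filter through P1 only. Runx1, Lmo2, Spi1 and Flt3 were not called, and their estimates ran from -0.70 to 0.21 on the log2 scale. Gata2 and Meis1, estimated at 2.31 and 1.73, did not pass the test and their groups overlapped. In bulk samples such as these, more cells of a type and more RNA per cell cannot be told apart, and cell selection, genotype and tumour differ between the groups at once. Leaving out WT A, WT B or replicate 3 of P1 brought the number called higher to 2, and it was 5 without WT C or without P1 replicate 5. The 5 include Cd34, which passed the filter in those 2 fits. The number of genes called over the whole table changed with the library left out as well. Without WT A, 1715 of 16071 tested genes were higher, against 2618 of 15462 with all libraries.

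**Figure D1:**
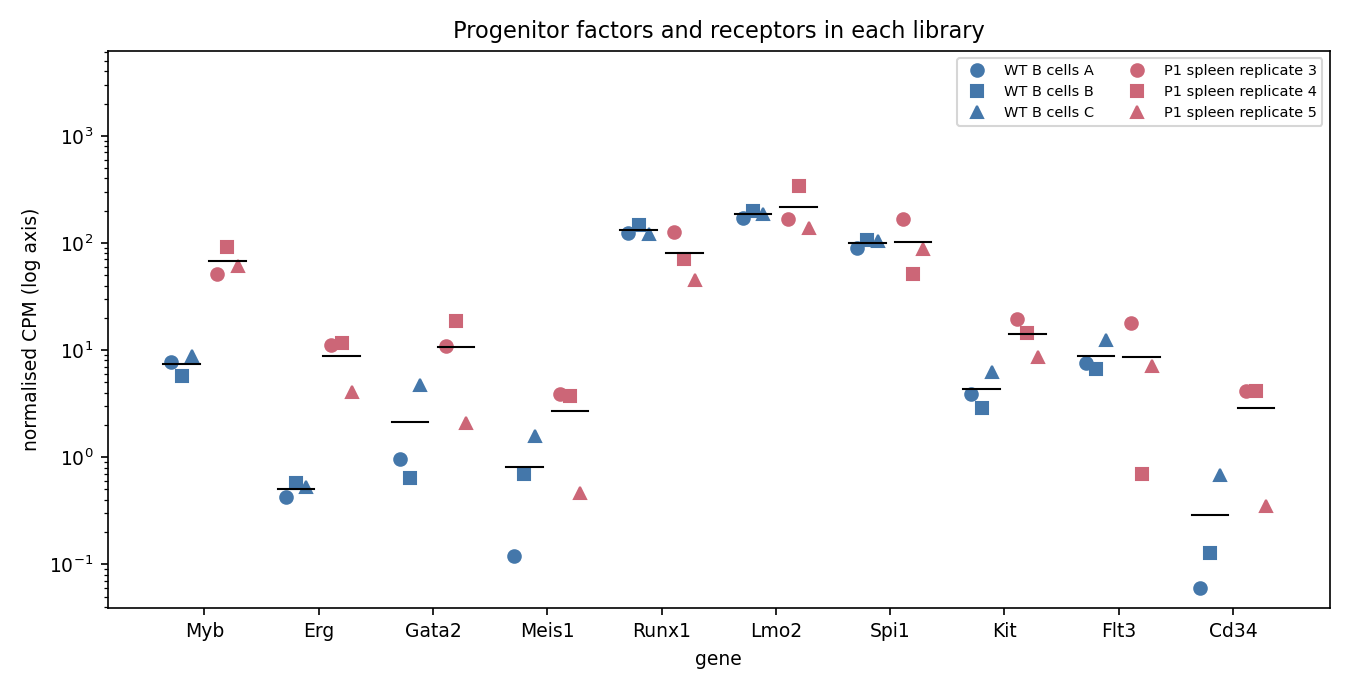
Normalised CPM of the 10 genes (log axis) in each of the 6 libraries, WT B cells in blue and P1 spleen in red, with the group mean as a black line. Myb, Erg and Kit are the 3 genes whose P1 libraries all lie above the WT libraries, and P1 replicate 5 is the lowest P1 library for 7 of the 10.

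Myb, a transcription factor needed for the growth of blood progenitors and of early B and T cells, lies on the minus strand of chromosome 10 (21000834 to 21036883, GRCm39). WT A, B and C held 127, 90 and 116 counts of it, and P1 replicates 3, 4 and 5 held 601, 394 and 532. Scaled, these were 7.67, 5.76 and 8.73 normalised CPM in WT and 51.5, 90.8 and 61.5 in P1. Each P1 library lay far above each WT library, and the P1 libraries differed among themselves by 1.76 times. Myb rose by 3.20 ± 0.32 (log2 fold change ± standard error; edgeR adjusted p = 0.000644, n = 3 per group). Myb was the member with the narrowest spread over the P1 libraries. An opposite-strand gene, Gm26577, overlaps it, with 2 to 28 counts in any library, and the strand used in counting is not stated.

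Erg, an ETS-family factor of stem cells, megakaryocytes and endothelium, lies on the minus strand of chromosome 16 (95160028 to 95387452). It had 7, 9 and 7 counts in the selected B cells and 129, 50 and 35 counts in P1. The levels were 0.423, 0.576 and 0.527 normalised CPM in WT and 11.1, 11.5 and 4.04 in P1. The groups did not overlap, and P1 replicate 5 was lower than the other P1 libraries. Erg had the largest change of the members, 4.09 ± 0.57 (log2; edgeR adjusted p = 0.00166). With at most 9 counts in any WT library, it passed the filter on low counts through P1 only. A same-strand gene without a symbol overlaps Erg, with 1, 0 and 0 counts in WT and 21, 4 and 9 in P1.

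Endothelial genes were followed beside Erg. Of 12 genes on the endothelial list, 6 were tested and 3 of these were higher and 1 lower, with a summed level of 268 to 326 normalised CPM in WT and 87.8 to 579 in P1. The number higher was 0, 1 and 0 without WT A, B and C, and 6 without P1 replicate 5. Pecam1, which B cells also express, was the lower gene and makes up most of the WT sum. Plvap, a protein of endothelial diaphragms, was at 3.94, 139 and 2.54 normalised CPM in P1 replicates 3, 4 and 5, and Tie1, an endothelial receptor, at 0.5995, 46.1 and 0.578. All 12 genes of the list were highest in P1 replicate 4 among the P1 libraries. In P1 replicate 5, Tek, Cldn5, Robo4 and Emcn had 0 counts, while Cdh5 had 46, Egfl7 22 and Plvap 22. Kdr had 60 counts in each of replicates 3 and 4 and 4 in replicate 5. The part of endothelial cells in the Erg result was not tested.

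Kit, the receptor tyrosine kinase for stem cell factor, lies on the plus strand of chromosome 5 (75735576 to 75817382). Its counts were 64, 45 and 83 in WT and 226, 63 and 75 in P1. Scaled, these were 3.86, 2.88 and 6.25 normalised CPM in WT and 19.4, 14.5 and 8.67 in P1. The groups did not overlap, but the lowest P1 library, replicate 5, was close to the highest WT library, WT C. Kit rose by 1.71 ± 0.45 (log2; edgeR adjusted p = 0.0231). The call was lost without WT A (adjusted p = 0.102), without WT B (0.108), without P1 replicate 3 (0.0532) and with library totals in place of TMM (0.0913), with estimates of 1.60, 1.46, 1.40 and 1.45.

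Mast cells and basophils carry Kit or Gata2. Their list of 12 genes, which includes Kit and Gata2, had 5 tested and 2 higher, Kit itself and Hdc, the enzyme of histamine synthesis. The summed level was 5.37 to 18.5 normalised CPM in WT and 66.0 to 169 in P1. Hdc, Kit and Gata2 made up most of this sum in each library, so it is partly drawn from the member values. Leaving out WT A, WT B or replicate 3 of P1 brought the number higher to 1, and it was 4 without WT C or P1 replicate 5. The mast cell protease genes Cma1, Mcpt4 and Tpsab1 had 0 counts in each P1 library and Tpsb2 had 1 in all. Cpa3, Fcer1a and Ms4a2 of the same list, all below the filter, had 30, 25 and 40 counts in P1 replicate 3. They had at most 3 counts in replicates 4 and 5 and at most 4 in any WT library. The basophil protease gene Mcpt8 had 149, 2 and 14 counts in P1 replicates 3, 4 and 5, and Prss34 had 434, 7 and 31. Hdc was at 80.7, 53.7 and 49.1 normalised CPM in the same libraries. Their part in the Kit result was not tested.

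**Figure D2:**
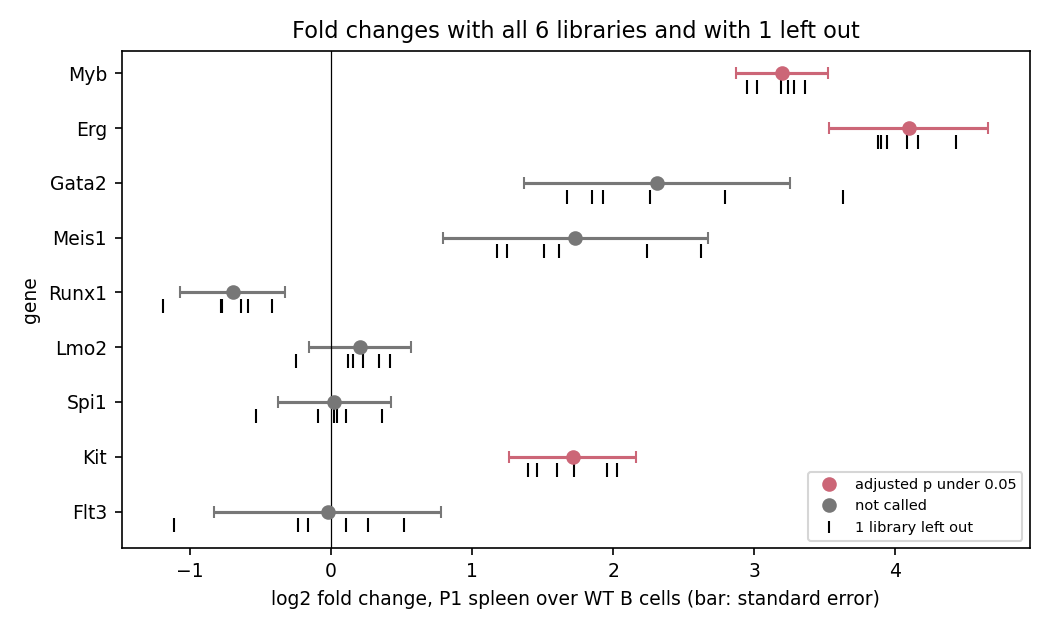
Log2 fold change of P1 spleen over WT B cells for the 9 tested genes, as points with standard error bars, and, as black ticks, the estimate with each library left out in turn. Myb, Erg and Kit (red) stay above 0 in each of the 6 reduced fits, Lmo2, Spi1 and Flt3 change sign, and Gata2 ranges from 1.67 to 3.63.

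To show the control regions of the genes that rose, the 250 bases before the RefSeq transcript start (GRCm38.p6, printed on the gene's own strand) were read for Myb, Kit and the third of 3 listed Erg starts, with the first listed Runx1 start as a member that did not rise. Capitals mark the motif AGATAA, bound by Gata factors, the motif TGTGGT, bound by Runx factors, or the motif CAGGTG, an E-box, each searched on both strands. None of the motifs contains another.
Myb, chr10:21160985-21161234, minus strand: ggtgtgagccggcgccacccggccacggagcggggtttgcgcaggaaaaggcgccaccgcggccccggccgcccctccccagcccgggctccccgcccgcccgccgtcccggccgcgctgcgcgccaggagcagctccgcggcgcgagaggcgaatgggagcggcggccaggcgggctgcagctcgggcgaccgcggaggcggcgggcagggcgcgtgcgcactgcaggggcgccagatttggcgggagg
Kit, chr5:75574737-75574986, plus strand: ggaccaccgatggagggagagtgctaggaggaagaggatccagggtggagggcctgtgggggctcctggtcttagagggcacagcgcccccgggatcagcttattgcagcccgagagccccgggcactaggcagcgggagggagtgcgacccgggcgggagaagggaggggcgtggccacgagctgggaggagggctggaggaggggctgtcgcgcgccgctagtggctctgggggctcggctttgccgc
Erg, chr16:95459349-95459598, minus strand: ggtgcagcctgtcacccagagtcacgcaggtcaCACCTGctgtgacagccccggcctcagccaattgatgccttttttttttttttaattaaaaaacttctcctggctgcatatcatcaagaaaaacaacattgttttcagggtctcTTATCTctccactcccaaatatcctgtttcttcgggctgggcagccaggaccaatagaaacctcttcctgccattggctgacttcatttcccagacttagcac
Runx1, chr16:92826075-92826324, minus strand: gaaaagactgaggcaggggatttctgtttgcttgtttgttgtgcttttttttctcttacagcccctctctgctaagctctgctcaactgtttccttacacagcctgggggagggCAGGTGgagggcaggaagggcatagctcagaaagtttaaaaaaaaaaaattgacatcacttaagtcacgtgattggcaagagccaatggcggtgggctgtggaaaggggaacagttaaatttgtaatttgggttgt
The Erg window holds the E-box and the Gata motif, each on the other strand, and the Runx1 window holds CAGGTG. For Erg and Runx1 the start shown is the one with a match. Listed starts 1 and 2 of Erg and 2 of Runx1 hold none of the 3 motifs. Neither the Myb nor the Kit window holds any of the 3 motifs. The Myb and Kit windows are rich in G and C, at 81.2% and 70.8%, beside a median of 52.4% over all listed promoters.

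Promoter windows were listed for 8 of the 10 members, with 13 starts in all. A motif was found in 3 of the 13: those of Erg and Runx1 shown above and TGTGGT in that of Meis1. Over all 32851 listed promoters of the same length, AGATAA was present in 10%, TGTGGT in 14.0%, CAGGTG in 17.2% and at least 1 of the 3 in 35.8%. The counts are per gene and do not say which start was used. Lmo2 and Spi1 had no entry.

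Gata2, a zinc finger factor of stem cells, mast cells and early erythroid cells, lies on the plus strand of chromosome 6 (88170873 to 88184014). Its counts were 16, 10 and 63 in WT and 128, 81 and 18 in P1, or 0.966, 0.640 and 4.74 against 11.0, 18.7 and 2.08 normalised CPM. WT C lay above P1 replicate 5, so the groups overlapped. The log2 fold change was 2.31 ± 0.94 (edgeR adjusted p = 0.103). The gene was called higher without WT C (3.63, adjusted p = 0.0374), without P1 replicate 5 (2.79, adjusted p = 0.0418) and by the DESeq2 Wald test (2.34, adjusted p = 0.0288).

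Meis1, a homeobox factor of stem cells and megakaryocytes, lies on the minus strand of chromosome 11 (18829817 to 18968985). It had 2, 11 and 21 counts in WT and 45, 16 and 4 in P1. That is 0.121, 0.704 and 1.58 normalised CPM in WT and 3.85, 3.69 and 0.462 in P1. P1 replicate 5 lay below both WT B and WT C. The log2 fold change of 1.73 ± 0.94 did not pass (edgeR adjusted p = 0.207), and it ran from 1.18 without WT A to 2.62 without WT C, with no call in either.

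Cd34, on the plus strand of chromosome 1 (194621127 to 194643587), was the least counted member in WT, with 1, 2 and 9 counts, and had 48, 18 and 3 in P1. The levels were 0.0604, 0.128 and 0.678 normalised CPM in WT and 4.11, 4.15 and 0.347 in P1. Replicates 3 and 4 were above each WT library, whereas replicate 5 lay below WT C. Without a filter on low counts the estimate was 3.17 ± 0.93 (edgeR adjusted p = 0.0228), with only 3 counts in P1 replicate 5. With the filter kept and 1 library left out, Cd34 passed the filter in 4 of the 6 fits: without WT A (2.78, edgeR adjusted p = 0.157), WT B (2.92, 0.174), WT C (4.73, 0.0383) and P1 replicate 5 (3.85, 0.0125). It was called higher in the last 2 of these. The opposite-strand gene Gm16897, which overlaps Cd34, had 14, 6 and 16 counts in WT, more than Cd34 itself, and 6, 14 and 6 in P1, and without strand the reads of these genes cannot be told apart.

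Gata2, Meis1, Cd34 and Kit were each highest in WT C among the WT libraries and lowest in replicate 5 among the P1 libraries. Cd34 and Gata2 were the closest pair of members, with a root mean square difference of 0.43 between their log2 profiles over the 6 libraries, each centred on its own mean. Runx1 and Spi1 came next at 0.55, Myb and Erg at 0.58, and Cd34 and Meis1 at 0.61. Over all members, WT C was the highest WT library for 6 of 10, and P1 replicate 5 was the highest P1 library for 0 of 10.

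Of the 10 megakaryocyte and platelet genes with counts in WT, 9 were highest in WT C, and Gp1ba was highest in WT A (5.49, 3.39 and 3.09 normalised CPM). Their list of 11 genes had 10 tested and 0 called in either direction, and its summed level was 17.3, 43.4 and 104 normalised CPM in the WT libraries, and 123, 95.9 and 39.7 in the P1 libraries. Vwf, the platelet and endothelial adhesion protein, was at 3.80, 12.02 and 33.9 in WT and 42.4, 39.9 and 16.7 in P1. Itga2b, the platelet integrin chain, was at 4.41, 11.4 and 27.6 in WT and 35.8, 36.0 and 13.9 in P1. Meis1 had the same order of libraries as this sum in WT and in P1. Their part in the Gata2, Meis1, Cd34 and Kit values was not tested.

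Runx1, the core binding factor subunit that starts blood formation in the embryo, lies on the minus strand of chromosome 16 (92398354 to 92623037). B cells expressed it evenly, at 124, 146 and 122 normalised CPM in WT (2059, 2282 and 1625 counts). The P1 libraries held 126, 71.2 and 44.7 (1472, 309 and 387 counts). Replicate 3 was within the WT range and the other P1 libraries were below it. The estimate was -0.70 ± 0.37 (edgeR adjusted p = 0.201), and without P1 replicate 3 it was called lower (-1.19, adjusted p = 0.0193).

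Lmo2, the bridging protein of the Tal1 and Gata complexes, lies on the plus strand of chromosome 2 (103788331 to 103812223). It was at 171, 200 and 186 normalised CPM in WT (2840, 3120 and 2466 counts) and at 169, 336 and 138 in P1 (1972, 1460 and 1190 counts). One P1 library, replicate 4, lay well above WT and the others below it. The log2 fold change was 0.21 ± 0.36 (edgeR adjusted p = 0.71), and -0.25 without replicate 4. The opposite-strand gene 4931422A03Rik overlaps it, with 66 to 187 counts in any library.

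Spi1, which encodes PU.1, the ETS factor of myeloid and B cells, lies on the plus strand of chromosome 2 (90912735 to 90946101). Its levels were 88.7, 107 and 105 normalised CPM in WT (1469, 1675 and 1394 counts) and 166, 51.4 and 87.6 in P1 (1936, 223 and 758 counts). The group means were nearly equal, 100.2 ± 10.1 and 101.6 ± 58.5 (SD, n = 3 per group), while P1 libraries lay on both sides of WT. The log2 fold change was 0.02 ± 0.40 (edgeR adjusted p = 0.974). Within P1 the order of Spi1, replicate 3 over 5 over 4, was that of summed macrophage and monocyte genes (3510, 923 and 861 normalised CPM) and of neutrophil genes (7990, 2780 and 999). The order was not particular to these lists. Granulocyte progenitor genes (505, 327 and 242) and T and NK cell genes (739, 316 and 260) shared it. So did genes of surface proteins used to sort progenitors (754, 546 and 374). In the macrophage and monocyte sum, replicate 5 exceeded replicate 4 only through Lyz2, at 311 and 42.6. Adgre1, Vcam1, Spic, Hmox1, Cd163, Mertk and Marco were higher in replicate 4 than in 5, and the other genes of that list were higher in replicate 5. Pan-B genes had another order, with 8060, 14400 and 4340 in replicates 3, 5 and 4. Of the 14 macrophage and monocyte genes 4 were called higher and 0 lower (2 and 1 higher without WT A and WT B), and of the 11 neutrophil genes 11 were higher. Their part in the Spi1 value was not tested.

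Flt3, the receptor for Flt3 ligand, lies on the minus strand of chromosome 5 (147267551 to 147337299). It was at 7.61, 6.59 and 12.4 normalised CPM in WT (126, 103 and 165 counts) and at 17.8, 0.691 and 7.05 in P1 (208, 3 and 61 counts). P1 replicate 3 was the highest library and replicate 4 the lowest, so the P1 spread of 25.8 times was the widest of the members. The estimate was -0.02 ± 0.80 (edgeR adjusted p = 0.987).

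Of the 9 early B cell genes with counts in P1, 8 were highest in replicate 3, the P1 library with most Flt3, and Lef1 in replicate 4. Of 11 dendritic cell genes 7 were highest in replicate 3, Batf3 in replicate 4 and Bst2, Ccr7 and Irf8 in replicate 5. Rag1 and Vpreb1, which act in receptor gene assembly and the pre-B receptor, had 126 and 27 counts in P1 replicate 3 and 0 in replicates 4 and 5. Igll1, also of the pre-B receptor, had 35 counts in replicate 3 and 0 in the other 5 libraries. Of the 10 early B genes 4 were tested and 3 of these were higher, Il7r, Cd93 and Lef1. Sox4 was not called (-0.49, edgeR adjusted p = 0.456). The sums were 22.0 to 37.9 normalised CPM in WT and 152, 74.0 and 60.1 in P1 replicates 3, 4 and 5. In replicates 4 and 5 the sum was mostly Cd93 (41.7 and 34.3) and Lef1 (17.7 and 12.7). The dendritic cell receptor genes Xcr1 and Clec9a had 55 and 100 counts in replicate 3, against 0 and 7 in replicate 4 and 0 and 3 in replicate 5. Of the dendritic genes 9 were tested, with 2 higher and 1 lower. The number higher was 0 without WT A or WT B and 1 without P1 replicate 3 or 5. Their summed level, mostly Irf8 and Ccr7, which B cells express too, was 884 to 1240 normalised CPM in WT and 520, 315 and 575 in P1 replicates 3, 4 and 5. Their part in the Flt3 value was not tested.

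Levels of different genes were compared per kilobase of the deposited gene length. In WT the order was Lmo2 (85.7 ± 6.49 normalised CPM per kb, SD, n = 3), Spi1 (37.2 ± 3.74), Runx1 (10.9 ± 1.09), Flt3 (1.44 ± 0.505), Myb (0.827 ± 0.169), Kit (0.486 ± 0.195), Gata2 (0.392 ± 0.423), Erg (0.147 ± 0.0226), Meis1 (0.0761 ± 0.0698) and Cd34 (0.0396 ± 0.0464). The first 3 of these stood apart from one another and from the rest by more than their spread. In P1 Lmo2 (98.9 ± 49.4) and Spi1 (37.7 ± 21.7) again came first, followed by Myb (7.60 ± 2.29), Runx1 (6.71 ± 3.45), Erg (2.56 ± 1.21), Gata2 (1.96 ± 1.54), Kit (1.59 ± 0.601), Flt3 (1.38 ± 1.40), Cd34 (0.394 ± 0.300) and Meis1 (0.253 ± 0.182). Myb thus moved from below Runx1 in each WT library to a level that overlapped it. Among the P1 neighbours from Erg to Meis1 the library ranges of each adjacent pair overlapped, as did those of Myb and Runx1.

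**Figure D3:**
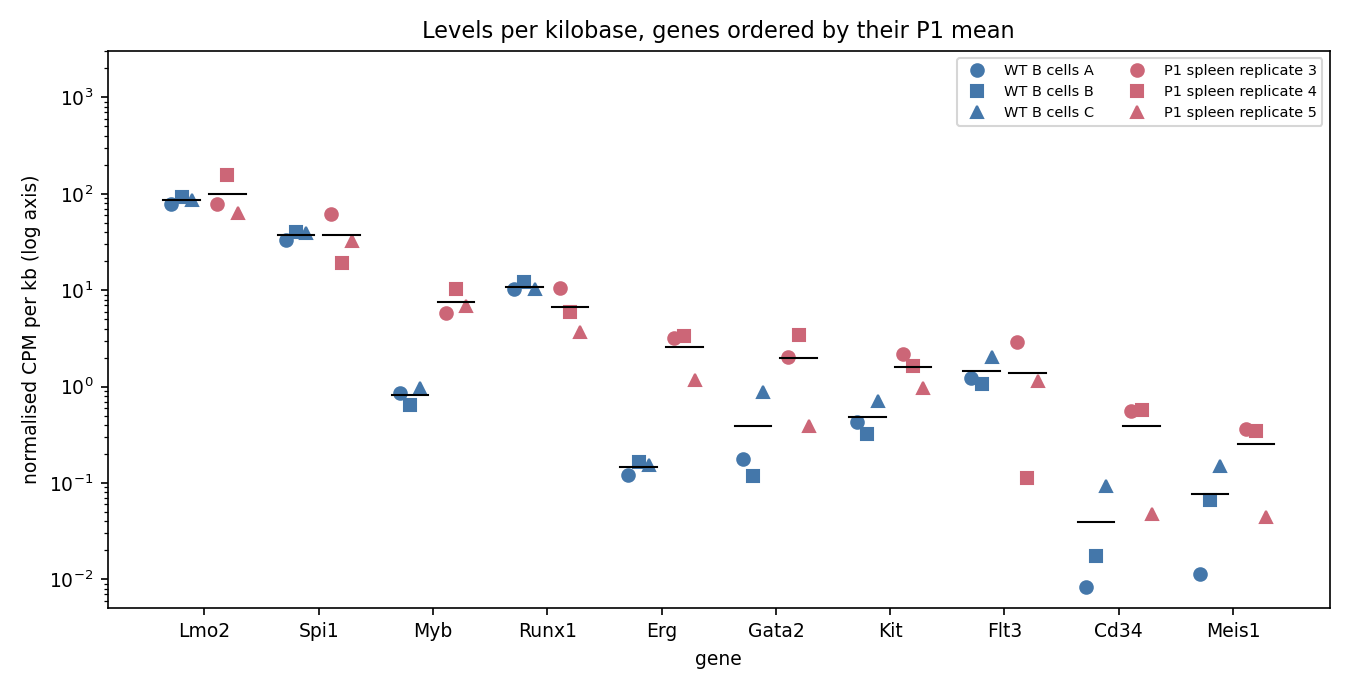
Normalised CPM per kilobase of gene length (log axis) for the 10 genes, ordered by their mean in P1 spleen, in the 3 WT (blue) and 3 P1 (red) libraries, with group means as black lines. Lmo2 and Spi1 lead in both groups, and Cd34 and Meis1 are lowest in both.

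The partners of these factors did not move as a block. Of 24 partner factors 20 were tested, with 8 higher and 3 lower and a median log2 fold change of 1.00. Tal1, which joins Lmo2 and Gata factors, rose by 5.23 (edgeR adjusted p = 0.00129), from 3.20, 1.60 and 4.37 to 143, 167 and 34.3 normalised CPM. Its relative Lyl1 was not called (-0.37, edgeR adjusted p = 0.509), and Fli1, an ETS factor that B cells express, fell by 1.83 (log2; edgeR adjusted p = 0.00829). The erythroid factors Gata1 and Gfi1b rose by 4.39 and 4.06 (edgeR adjusted p = 0.00219 and 0.00305), and the Gata1 cofactor gene Zfpm1 by 3.56 (adjusted p = 0.00154). Cebpa, the factor of granulocyte progenitors, rose by 2.70 (adjusted p = 0.00815). Hhex and Bmi1 fell by 1.59 and 0.97 (log2; edgeR adjusted p = 0.0065 and 0.0136). The stem cell factor genes Mecom, Hlf, Hoxa9 and Hoxa10 were below the filter, with at most 18 counts in any library. Of these, Hlf (2, 1 and 1 counts in WT, 15, 8 and 6 in P1) and Hoxa9 (0, 0 and 2, then 12, 10 and 4) were higher in each P1 library. The groups overlapped for Mecom and Hoxa10. Hoxa7 was called higher (3.27, edgeR adjusted p = 0.0179). It had 2, 0 and 5 counts in WT and 20, 7 and 13 in P1, and passed the filter through P1.

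Receptor genes of committed progenitors were called higher more often than lower. Of 10 further cytokine receptor genes 9 were tested, with 5 higher and 1 lower (median log2 fold change 2.23). Epor, the erythropoietin receptor, rose by 5.48 (edgeR adjusted p = 0.000579), Csf3r, the receptor of granulocyte growth, by 5.41 (0.00213), and Csf2rb, the shared chain of the GM-CSF and IL-3 receptors, by 3.58 (0.000376). Cxcr4, the homing receptor that B cells also carry, fell by 2.73 (log2; edgeR adjusted p = 0.00457).

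Of 11 ligand genes 4 were tested and 1 was higher, Csf1, by 2.45 (edgeR adjusted p = 0.000909), and 3 were higher without P1 replicate 5. Kitl, the ligand of Kit, had 5, 22 and 12 counts in WT and 50, 26 and 1 in P1 and was not called (1.95, edgeR adjusted p = 0.195). Flt3l was at 16.8, 12.3 and 15.4 normalised CPM in WT and 13.2, 6.45 and 6.12 in P1, and did not pass (-0.77, edgeR adjusted p = 0.174). The remaining ligands had few counts, and Epo and Il3 had 0 in every library.

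Of 20 genes that carry or damp Kit and Flt3 signals 5 were higher and 1 lower (median -0.03), and the number higher was 3 without WT A, B or C. The feedback genes Socs2 and Cish, induced through Stat5, rose by 4.18 and 4.14 (edgeR adjusted p = 0.00192 and 0.00253), and Sh2b3, the adaptor that restrains these receptors, fell by 1.53 (log2; 0.00418). Of 11 further surface proteins used to sort progenitors 8 were higher and 1 lower (median 2.48), and the number higher was 5, 3 and 5 without WT A, B and C. Cd33 rose by 4.68 and Cd93 by 2.32 (edgeR adjusted p = 0.000579 and 0.00321), and the myeloid, endothelial and early B cells that also bear them were not separated. Slamf1, which B cells express, fell by 2.44 (log2; 0.00301).

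Genes of the maturing blood lineages were also higher in P1. All 13 erythroid genes were higher (median log2 fold change 7.76), with a summed level of 126 to 158 normalised CPM in WT and 33500, 195000 and 6420 in P1 replicates 3, 4 and 5. All 8 genes of granulocyte progenitors were higher (median 7.01), with sums of 8.44 to 19.2 in WT and 505, 242 and 327 in P1. Mpo, the primary granule peroxidase, was at 0.785, 0.768 and 3.54 normalised CPM in WT and 188, 79.3 and 78.3 in P1 (log2 fold change 6.10, edgeR adjusted p = 0.000986). Among WT libraries Mpo was highest in WT C, as were Kit, Gata2, Meis1, Flt3, Myb and Cd34. The erythroid sum was lowest in P1 replicate 5, the library in which Erg, Kit, Gata2, Meis1, Cd34, Lmo2 and Runx1 were lowest as well. This was not particular to erythroid genes. The megakaryocyte, mast cell and basophil, endothelial, early B, stromal and dividing cell sums were also lowest there. Granulocyte progenitor, neutrophil, macrophage and monocyte, dendritic, pan-B and T and NK cell sums were lowest in replicate 4. All 12 genes of dividing cells were higher (median 3.32), with sums of 220 to 290 in WT and 2460 to 5090 in P1 (3290, 5090 and 2460 in replicates 3, 4 and 5). Mki67 carried most of the sum in replicate 4, at 3809 normalised CPM, whereas 8 of the 12 genes were highest in replicate 3. Of 14 T and NK cell genes 11 were higher, the T cell genes and Nkg7, and the NK cell genes Ncr1, Klrb1c and Gzma were not called (sums of 47.5 to 66.6 in WT and 260 to 739 in P1). Of 10 stromal genes 4 passed the filter, with at most 5 counts in any WT library, so they passed through P1 only (sums of 0.0604 to 1.53 and 10.4 to 175). Their part in the member results was not tested.

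**Figure D4:**
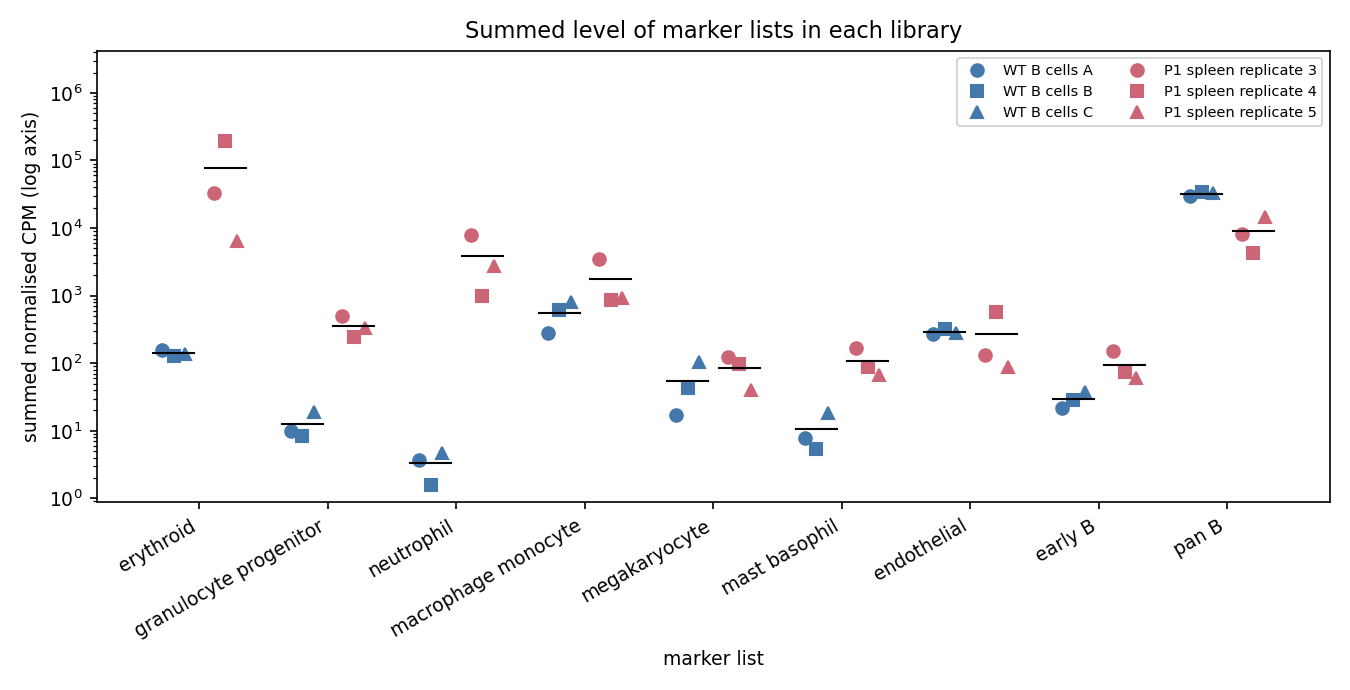
Summed normalised CPM (log axis) of 9 marker lists in each library, WT B cells in blue and P1 spleen in red, with group means as black lines. Erythroid, granulocyte progenitor and neutrophil sums are higher in each P1 library than in any WT library, megakaryocyte sums overlap, and pan-B sums are lower in each P1 library.

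Genes whose profile over the 6 libraries was most like a member's were ranked by the root mean square difference of centred log2 values. For Myb they were Thbd (0.14), a thrombin receptor, and Slc7a5 (0.21), an amino acid transporter chain, called higher by 3.33 and 3.21. For Erg they were Mxd1 (0.09) and Peli2 (0.22), for Kit Ggt5 (0.19) and Cxcl16 (0.20), and for Gata2 Vsig10 (0.45) and Batf3 (0.52). The nearest genes lay at 0.37 (Hebp1) for Cd34, 0.25 (Cdc42ep2) for Meis1 and 0.32 (Tlr12) for Flt3, and at 0.07 (Pnpla2), 0.09 (Atp6ap1) and 0.07 (Rflnb) for Lmo2, Runx1 and Spi1. Each value rests on 6 libraries in 2 groups.

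When libraries were instead scaled on the pan-B list, the median over all genes became 3.12 (log2) and the test called all 9 tested members higher. Relative to that shift Erg (7.34), Myb (6.47), Gata2 (5.69), Meis1 (4.94), Kit (4.86) and Lmo2 (3.59) lay above the median of all genes, and Spi1 (2.98), Flt3 (2.74) and Runx1 (2.44) below it.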

How the data were processed

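The authors deposited 1 table of raw counts per gene for 6 RNA-seq libraries, made from 50 ng of total RNA with a directional kit, per the labels' protocols. The submitters' processing notes name Trim Galore, HISAT2, featureCounts and the build GRCm39. Their versions, their options and the strand setting are not given in the sources used here. Symbols were found for 51948 of 56884 gene IDs (91.3%). Counts were tested with edgeR 4.0.16 (R 4.3.3), using filterByExpr by group, TMM and the robust quasi-likelihood F-test. P1 spleen was set against WT B cells, 3 libraries each, with no covariates and Benjamini-Hochberg adjustment over 15462 genes at 0.05. The procedure was tested on simulated data. Normalised CPM use the TMM-adjusted total, levels carry the SD and log2 fold changes the standard error, and log2 profiles used a prior count of 2. Levels per kilobase use the deposited gene length.

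Nothing in the labels says that the P1 libraries came from independent lymphomas, so the p-values cover only differences among these libraries, which may be technical in part. The 10 genes and all 20 lists (251 entries, all matched) were chosen with earlier results of these data known. All 10 genes are named. From each list, the 3 genes with the smallest adjusted p and the most abundant gene were eligible, as was any gene of these short lists. For each of the 10 genes, the 2 nearest profiles were taken among 10185 named protein-coding genes that were tested and had a mean of at least 5 normalised CPM in a group. Promoters are RefSeq's (GRCm38.p6), and gene coordinates are those of the table (GRCm39). Alternatives were DESeq2 1.42.0, library totals, pan-B scaling, TMM without mitochondrial and globin genes, no filter, at least 1 CPM in 3 libraries, and leaving out each library. A planned comparison of protein sequences was not done.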

Additional observations from a re-analysis of the deposited data

How the results depend on the processing

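Myb and Erg kept their call under all 12 alternatives. DESeq2 added Gata2 (log2 fold change 2.34). With library totals Kit lost its call (1.45) and Lmo2 (-0.22) and Spi1 (-0.11) changed sign. Scaling on the pan-B list called 14185 genes higher and 100 lower and all 9 tested members higher. It gave 2.74 for Flt3 and 2.44 for Runx1, which changed sign, and 4.94 for Meis1, 5.69 for Gata2, 3.59 for Lmo2 and 2.98 for Spi1, which gained a call. Without a filter Spi1 was at -0.08. Leaving out each library gave 1644 to 3207 genes higher and 815 to 2313 lower, with 2 to 5 members higher and 0 to 1 lower. The log2 fold changes then ran from 1.40 to 2.03 for Kit, -1.11 to 0.52 for Flt3, 1.18 to 2.62 for Meis1, 1.67 to 3.63 for Gata2, -0.25 to 0.42 for Lmo2, -1.19 to -0.42 for Runx1 and -0.53 to 0.36 for Spi1. Without WT A or WT B fewer genes were called (1715 and 1644 higher, 827 and 815 lower), and without WT C 979 were lower; the cause of these shifts was not tested. No paired analysis was possible because the labels give no pairing of WT and P1 mice, and replicate numbers do not pair them. The low counts of Cd34, Meis1 and Erg in WT, and the small P1 replicate 4, limit precision.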
